A study of Mus musculus with 6 samples.

Results

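The genes that encode the proteins of the cytosolic ribosome were examined at their promoters in open chromatin of the mouse retina. The members were the autosomal protein-coding genes of the GRCm38.p6 table whose symbols are Rpl or Rps followed by a number, with the endings a, x, l and p0 to p2 allowed and the Rps6k kinases and pseudogenes left out. There were 77 of them among 21887 protein-coding genes, 29 named for the small ribosomal subunit and 48 for the large one. ATAC-seq, in which the Tn5 transposase inserts sequencing adapters into accessible DNA, had been applied to C57BL/6 retinas at E14.5 (day of embryonic development). The 3 wild-type libraries came from Atoh7 +/+ embryos and the 3 SE/SE libraries from embryos in which both copies of the Atoh7 shadow enhancer were mutated. Atoh7 is a basic helix-loop-helix gene needed to form retinal ganglion cells. Every library was the pair of retinas of 1 animal, so libraries of a genotype are separate animals, and the retina was not sorted into cell types.

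A ribosome carries a core of ribosomal RNA and many small proteins, most of them encoded by 1 active gene each and needed in equal amounts. Their promoters are among the most used in dividing cells. In mammals many start transcription at a C inside a run of pyrimidines (C and T), the beginning of the terminal oligopyrimidine (TOP) tract by which mTOR signalling controls the translation of these mRNAs. Most lack a classical TATA box, and the ETS-family factor GABP, Sp1 and YY1 are known to bind many of them.

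The letters around the start sites are shown first, because the peaks described afterwards sit on them. RefSeq listed a start with its promoter letters (GRCm38.p6) for 57 of the 77 members. Each line gives 100 bases before the start and 20 from it, read 5′ to 3′ on the gene's strand. Capitals mark the longest unbroken run of C and T that touches the 10 bases on either side of the start. The first set has the 4 longest runs among the members, of 21 bases in Rpl7a, 20 in Rpl27a, 18 in Rpl35 and 17 in Rpl15, and was picked for that length.
Rpl7a (chr2:26910707-26910826, plus strand): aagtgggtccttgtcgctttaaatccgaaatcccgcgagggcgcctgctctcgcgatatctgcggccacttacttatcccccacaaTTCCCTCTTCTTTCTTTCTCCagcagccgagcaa
Rpl27a (chr7:109519095-109519214, plus strand): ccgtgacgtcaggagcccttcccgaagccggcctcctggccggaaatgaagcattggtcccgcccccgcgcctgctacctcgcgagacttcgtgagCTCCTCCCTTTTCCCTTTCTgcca
Rpl35 (chr2:39005112-39005231, minus strand): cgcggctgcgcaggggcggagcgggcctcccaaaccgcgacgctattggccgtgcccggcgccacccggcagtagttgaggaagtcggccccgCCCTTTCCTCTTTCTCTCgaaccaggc
Rpl15 (chr14:18270967-18271086, minus strand): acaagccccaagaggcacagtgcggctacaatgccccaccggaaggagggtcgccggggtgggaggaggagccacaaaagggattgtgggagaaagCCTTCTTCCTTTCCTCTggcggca
The run covers the start base in each of these 4 genes. The second set shows small-subunit genes with a run at the start that is nearer to the members' usual length.
Rps6 (chr4:86857348-86857467, minus strand): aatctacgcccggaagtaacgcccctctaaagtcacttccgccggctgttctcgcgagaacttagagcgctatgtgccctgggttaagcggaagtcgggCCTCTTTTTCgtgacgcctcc
Rps9 (chr7:3703941-3704060, plus strand): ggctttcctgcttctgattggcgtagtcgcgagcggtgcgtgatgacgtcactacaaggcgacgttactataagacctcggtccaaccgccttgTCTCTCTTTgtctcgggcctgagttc
Rps6, the small-subunit protein phosphorylated downstream of mTOR, has a run of 10 bases, and Rps9 one of 9. The next set has short runs at promoters whose peaks were among the strongest, Rps19 and Rpl37, and at Rpl24, where the run has 2 bases.
Rps19 (chr7:24884492-24884611, plus strand): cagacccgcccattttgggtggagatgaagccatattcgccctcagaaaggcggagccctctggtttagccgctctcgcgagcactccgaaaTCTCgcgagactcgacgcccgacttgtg
Rpl37 (chr15:5116513-5116632, plus strand): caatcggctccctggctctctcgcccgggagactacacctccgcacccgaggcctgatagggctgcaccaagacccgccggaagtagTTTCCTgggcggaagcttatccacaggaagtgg
Rpl24 (chr16:55966175-55966294, plus strand): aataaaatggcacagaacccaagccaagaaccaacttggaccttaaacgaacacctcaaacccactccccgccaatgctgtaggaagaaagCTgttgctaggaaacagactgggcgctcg
The last set belongs to members among the 4 without a peak at the start in any library. Rpl32l, also among the 4 but not shown, has a run of 10 bases that covers its start base, a C. Rpl10l and Rpl39l are known as testis-expressed relatives of Rpl10 and Rpl39, and Rpl3l as the striated-muscle relative of Rpl3.
Rpl10l (chr12:66284382-66284501, minus strand): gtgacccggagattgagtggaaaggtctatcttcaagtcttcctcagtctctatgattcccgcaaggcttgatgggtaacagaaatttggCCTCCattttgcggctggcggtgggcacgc
Rpl39l (chr16:10170128-10170247, plus strand): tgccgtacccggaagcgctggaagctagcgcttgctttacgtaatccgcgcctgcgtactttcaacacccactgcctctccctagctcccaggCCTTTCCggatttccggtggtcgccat
Rpl3l (chr17:24727726-24727845, plus strand): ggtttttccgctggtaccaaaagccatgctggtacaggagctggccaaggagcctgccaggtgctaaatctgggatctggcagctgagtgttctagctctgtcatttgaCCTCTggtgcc
Pyrimidine runs were longer in members than in genes at large. The median run had 7 bases over the 57 members and 4 over the 17492 genes with a listed start, and it was also 4 over the 10121 genes with a peak at the start in 6 of 6 libraries. A run of 8 or more was found in 26 members, or 45.6%, against 13.6% of all genes. The listed start base was C in 35.1% of members and in 13.7% of all genes. These are descriptions of the sequences, with no test.

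Short motifs were counted in the whole 300-base windows, 250 bases before the start and 50 from it. CCTTTCC, read on the gene strand, was in 19.3% of member windows, in 4.97% of all windows and in 5.41% of windows of genes with a start peak in 6 of 6 libraries, called open windows here. CTTTTC, also on the gene strand, was in 19.3% of member, 10.7% of all and 9.77% of open windows. The ETS-type motif CCGGAAG, on either strand, was in 38.6% of member, 11.9% of all and 18.4% of open windows. TTCCGG, which lies inside the reverse complement of CCGGAAG, was in 47.4%, 19.1% and 28.7%. These 4 motifs were more frequent in members than in either background, as were AAGATGGCG and TATAAG, which follow with their counts. The other motifs were also read on both strands. The YY1-type motif AAGATGGCG was in 3 members, 5.26%, against 1.94% of all and 3.23% of open windows. The Sp1-type motif GGGCGG was in 56.1% of member windows, between the 46.3% of all windows and the 68.3% of open windows. TATAAA was in 7.02% of member windows, below the 13.3% of all windows and near the 6.16% of open windows. The variant TATAAG was in 8 members, 14.0%, against 6.65% of all and 3.6% of open windows. In Rps9 it lies before the start on the gene strand, and in Rpl6 after the start on the opposite strand. The Nrf1-type motif CGCATGCG was in 2 members, 3.51%, between the 2.54% of all and the 4.12% of open windows. A match says only that the letters are in the window.

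Facts of the libraries bear on all values below. The wild-type lists held 31340, 34797 and 27873 peaks and the SE/SE lists 39115, 42722 and 44242, and the read depth behind them is unknown. The amplification took 17, 18 and 19 PCR cycles for wild type and 15, 16 and 16 for SE/SE, and the labels do not say which library had which number, so genotype and amplification cannot be told apart. Of 10 marker genes of the retina, 9 had a peak at a gene end (within 1 kb) in 6 of 6 libraries and Six3 had one in 4. Of the markers of other tissues, 2 of 4 lens genes, 3 of 5 pigment epithelium genes, 1 of 4 endothelial genes (Kdr) and 0 of 4 blood and microglia genes had one. The lens genes Mip and Bfsp1 and the pigment epithelium genes Mitf, Dct and Pmel each had one in 6 of 6 libraries. The crystallin genes Cryaa and Cryba1 and the endothelial gene Cdh5 had none in any library.

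Almost every ribosomal protein gene had open chromatin at a gene end in every library. For each gene and library the peak with the highest deposited signal value was taken among those whose midpoint lay within 1 kb of either end of the gene, and it is called the gene-end peak. Such a peak was present in 6 of 6 libraries for 70 of the 77 members, or 90.9%, against 54% of all protein-coding genes. It was absent from all 6 for 6 members, or 7.79%, against 40.1% of all genes, and present in some libraries for Rpl22 alone. Wild-type libraries 1, 2 and 3 had 71, 71 and 70 members with a gene-end peak, and the SE/SE libraries had 71 each. The genotypes thus differed by 1 gene in 1 library (70.7 ± 0.577, SD, n = 3, and 71 ± 0). No member had a peak in 3 SE/SE and 0 wild-type libraries, a pattern found in 0.827% of all genes.

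**Figure D1:**
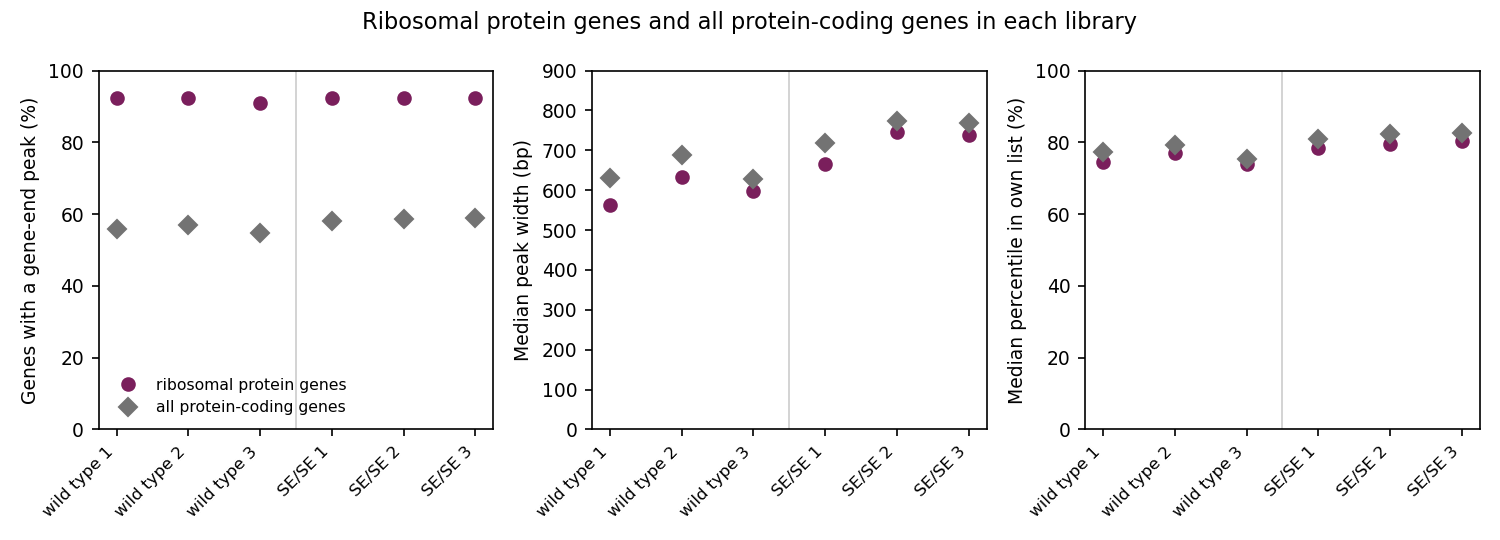
Share of genes with a gene-end peak (left, %), median peak width (middle, bp) and median percentile of the signal value in the library's own list (right, %), for the 77 ribosomal protein genes (circles) and all 21887 protein-coding genes (diamonds) in each of the 6 libraries. The members' share lies between 90.9% and 92.2%, far above that of all genes, whereas their median width and median percentile lie below those of all genes with a peak in each library.

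The 6 members without a gene-end peak were Rps2, Rps27l, Rpl17, Rpl10l, Rpl39l and Rpl32l. Of these, 3 had a peak inside the annotated gene in every library. The listed start of Rps2, which encodes a core small-subunit protein, lies 1942 bp inside the gene span. Rps2 had a peak there in every library, at chr17:24719616-24720213 (GRCm38) in wild-type 1. Its percentiles within the libraries' own lists were 80.8, 79.2 and 78.6 in wild type and 80.0, 81.4 and 84.4 in SE/SE. The percentile is the share of a library's peaks with a signal value no higher than that of the peak. The start of Rps27l, a close relative of Rps27 known as a p53 target, lies 1462 bp inside its span. Rps27l had start peaks at percentiles 72.7, 77.4 and 69.8 in wild type and 79.4, 81.4 and 82.7 in SE/SE. Rpl17, a large-subunit gene with no listed start, had a region inside the gene with a peak in 6 of 6 libraries, at chr18:75000367-75001040. Rpl10l, Rpl39l and Rpl32l, by contrast, had neither a gene-end peak nor a start peak in any library.

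Rpl22, a large-subunit protein with a paralog outside the rule (Rpl22l1), showed the same dependence on the annotation. Its gene-end peak lay at the far end of the gene and was small, 170 and 160 bp wide in wild-type libraries 1 and 2, absent from wild-type 3, and 219, 219 and 218 bp wide in the SE/SE libraries. Its start lies 1290 bp inside the span and had a peak in all 6 libraries, at percentiles 76.5, 74.5 and 74.3 in wild type and 76.1, 81.8 and 79.4 in SE/SE. The incomplete row of Rpl22 therefore concerns its far end and not its start. Rpl3l was counted as having a gene-end peak in 6 of 6 libraries through a peak of 337 to 365 bp beyond its far end, within 1 kb of an end of Msrb1. Its own start had none. The gene-end peaks of Rpl4 and Rpl41 also lay at the far end, within 1 kb of an end of Snapc5 and of Zc3h10. Their median percentiles there were 66.2 and 85.8. The highest-signal peaks near their listed starts were other peaks, with median percentiles of 32.9 and 69.9.

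Measured from listed starts instead of gene ends, 53 of 57 members had a peak within 1 kb in 6 of 6 libraries, or 93.0%, against 57.9% of the 17492 genes with a listed start. The other four, Rpl32l, Rpl10l, Rpl39l and Rpl3l, had one in 0 of 6. In all 53 the start base itself was covered by some peak in 6 of 6 libraries. For 45 members the start peak was the gene-end peak in all 6 libraries. At Rps26, Rpl4 and Rpl19 the peak with the highest signal value near the start did not cover the start base in 6, 6 and 5 libraries. At Rps26 it was a peak of 245 to 266 bp that ended upstream of the start.

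The start peaks reached a little farther into the gene than before it. In wild-type libraries the members' peaks that covered the start extended by a median of 239.5, 259.5 and 227.5 bp upstream and 320.5, 345 and 335.5 bp downstream. In SE/SE libraries the values were 261, 337.5 and 279 bp upstream and 335, 375 and 460 bp downstream. Over all genes the medians ran from 258 to 331 bp upstream and from 353 to 460 bp downstream, so members' peaks were shorter on the upstream side in 5 of 6 libraries, SE/SE 2 being the exception.

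**Figure D2:**
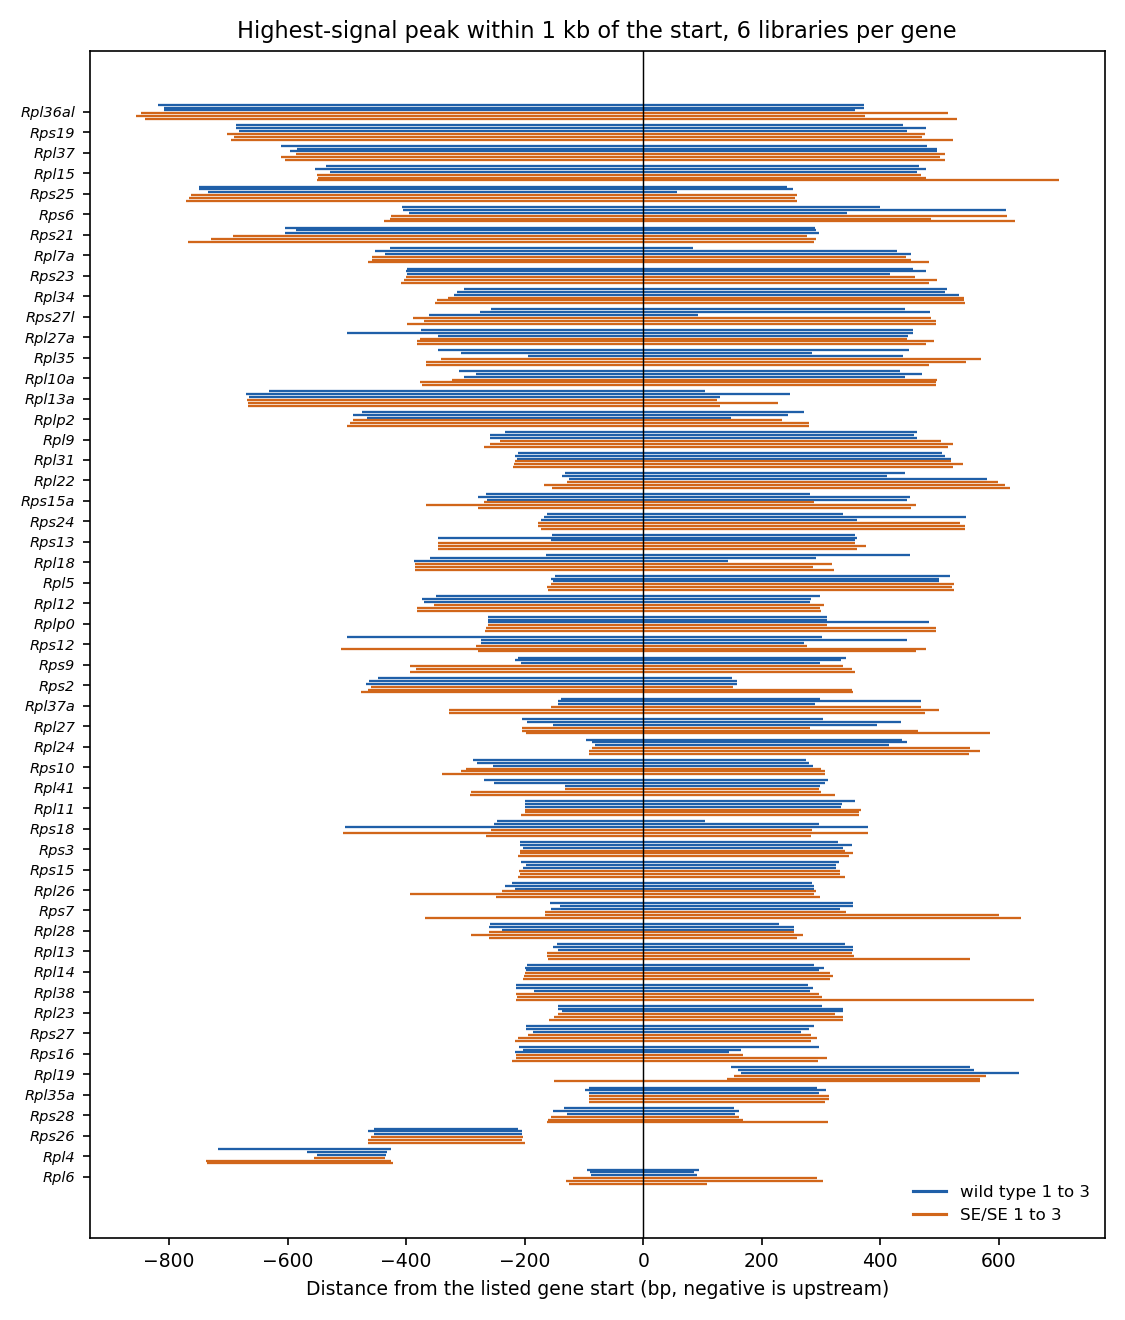
Extent of the highest-signal peak within 1 kb of the listed start for the 53 members with such a peak in 6 of 6 libraries, in bp from the start (negative is upstream), with 3 wild-type and 3 SE/SE bars per gene. Most bars span the start at 0; those of Rps26 and Rpl4 end upstream of it, and 5 of the 6 bars of Rpl19 begin downstream.

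When present, the gene-end peaks of ribosomal protein genes were not exceptional in size. Their median percentile was 74.6, 77.1 and 74.0 in wild-type libraries and 78.3, 79.5 and 80.2 in SE/SE libraries. The medians over all genes with a gene-end peak were 77.3, 79.2 and 75.3 in wild type and 80.9, 82.3 and 82.7 in SE/SE. The members lay below all genes in 6 of 6 libraries. Their median width was 563, 632 and 598.5 bp in wild type and 665, 745 and 739 bp in SE/SE, against 631, 689 and 627 bp and 719, 773 and 769.5 bp over all genes. These medians describe the genes that had a peak and leave out the others.

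Among the 70 members with a gene-end peak in 6 of 6 libraries, the median percentile over the libraries ran from 45.9 to 99.8, with 77.0 in the middle, and the median width from 212.5 to 2337.5 bp, with 679 bp in the middle. There were 11 members at percentile 90 or above and 2 under 60. In the plot of percentiles by library, the 6 points of the strongest peaks nearly coincide, and those of the weakest are spread more widely. The percentile scale is bounded at its top, which limits the spread of the highest points.

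**Figure D3:**
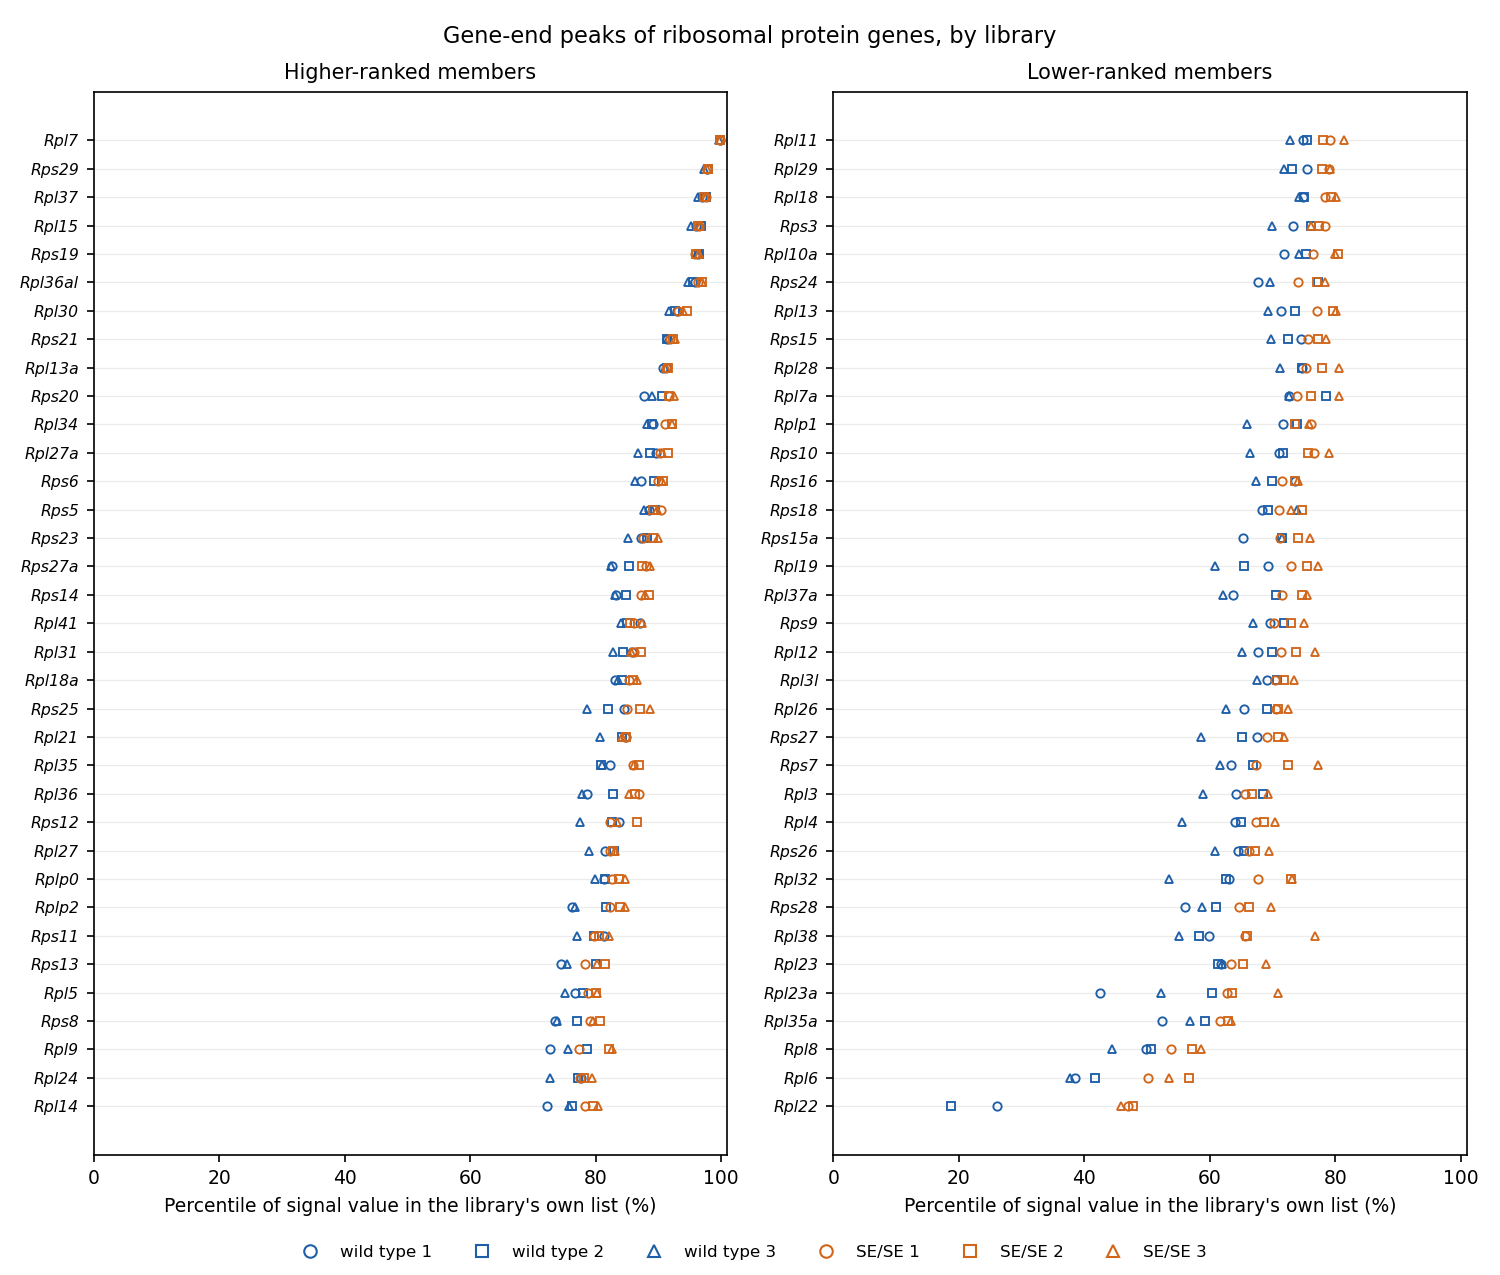
Percentile of the signal value of the gene-end peak within the library's own list (x axis, %) for members with such a peak in 1 or more libraries, ordered by median from the top left to the bottom right. Blue symbols are the 3 wild-type and orange symbols the 3 SE/SE libraries; Rpl7 lies above 99 in all 6, and Rpl6 lies between 37.7 and 56.7.

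Rpl7, a large-subunit protein, had the highest and widest peak. Its widths were 2257, 2342 and 2313 bp in wild type and 2348, 2383 and 2333 bp in SE/SE, and its percentile was 99.7 to 99.9 in all 6 libraries. The Rpl7 peak overlapped the end of the gene and also lay within 1 kb of an end of Rdh10, a retinol dehydrogenase gene, so the peak belongs to the ends of both genes. The widths of the genotypes overlapped.

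Rps29, Rpl37, Rpl15 and Rps19 followed, with median percentiles of 97.8, 97.4, 96.4 and 96.2. The Rps29 peak, at a small-subunit gene, was 1022, 1091 and 1017 bp wide in wild type and 1041, 1046 and 1051 bp in SE/SE. Rps19, a small-subunit protein mutated in Diamond-Blackfan anaemia, had peaks of 1127, 1166 and 1128 bp in wild type and 1179, 1163 and 1219 bp in SE/SE. In both genes the groups overlapped. Rpl37 and Rpl15 shared their peaks with the ends of Card6 and Nkiras1. Rpl36al, the second widest with a median of 1211.5 bp, shared its peak with an end of Mgat2.

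Among these 70 members, the weakest gene-end peaks belonged to Rpl6 and Rpl8, both core large-subunit genes. This ranking is of gene-end peaks and not of start peaks. Near the listed start of Rpl4, whose gene-end peak lay at the far end, the highest-signal peak had a lower median percentile, 32.9. Rpl6 had percentiles of 38.6, 41.7 and 37.7 in wild type and 50.1, 56.7 and 53.4 in SE/SE, and widths of 191, 176 and 179 bp in wild type and 413, 436 and 234 bp in SE/SE. Rpl8 had percentiles of 49.8, 50.6 and 44.4 in wild type and 53.9, 57.1 and 58.6 in SE/SE, and widths of 226, 234 and 206 bp in wild type and 423, 235 and 236 bp in SE/SE. In both genes every SE/SE library was above every wild-type library on both measures. The same held for 59.3% of the genes with a gene-end peak in 6 of 6 libraries in width and for 70.9% in percentile. Neither gene passed on width (limma adjusted p = 0.0932 for Rpl6 and 0.277 for Rpl8). Ranked only among gene-end peaks, Rpl8 stood at 12.6, 9.08 and 13.2 in wild type and lower, at 7.61, 6.51 and 7.06, in SE/SE. In that ranking the genotypes overlapped for Rpl6. Rpl35a, Rpl23a and Rpl23, also of the large subunit, had median percentiles of 60.5, 61.6 and 62.7. Rps26 and Rps28 were narrow as well, with medians of 260 and 316.5 bp.

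Members named for their role lay across this range. Rplp0, Rplp1 and Rplp2 form the acidic stalk that binds elongation factors. Rplp0 had percentiles of 81.4, 81.5 and 79.9 in wild type and 82.6, 83.7 and 84.7 in SE/SE. Rplp2 had 76.2, 81.7 and 76.7 against 82.3, 83.9 and 84.6, and Rplp1 71.6, 73.9 and 66.0 against 76.1, 73.5 and 75.7. For Rplp1 the groups overlapped. Rpl5 and Rpl11, which with the small ribosomal RNA of the large subunit can bind the p53 regulator Mdm2, had percentiles of 76.7, 78.0 and 75.2 against 78.7, 80.1 and 80.3, and of 74.9, 75.5 and 72.8 against 79.1, 78.1 and 81.4. Rps6 peaks were 807, 1019 and 741 bp wide in wild type and 1041, 914 and 1065 bp in SE/SE, with overlap. Rps3, which also acts in DNA repair, had percentiles of 73.3, 76.1 and 69.9 against 78.3, 77.4 and 76.1. None of the 7 passed a test of width or rank (below an adjusted p of 0.05, limma with Benjamini-Hochberg adjustment).

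Sequence and position features went with modest differences in these levels, given here as descriptions. The 20 members whose peak also lay within 1 kb of another gene's end had a median percentile of 79.1 and a median width of 732 bp, against 76.8 and 667 bp for the other 50. For the motifs and runs that follow, the percentile is that of the start peak and not of the gene-end peak. Among the members with a start peak, the 31 with GGGCGG in the window had a median percentile of 79.2 and the 22 without it 73.3. For CCGGAAG the medians were 78.4 with and 75.8 without, and for CCTTTCC 80.2 with and 75.9 without. For CTTTTC they went the other way, 72.9 with and 76.8 without. A pyrimidine run of 8 or more bases went with 75.6, shorter runs with 76.2. The ranges of each pair overlapped widely: with GGGCGG they ran from 60.5 to 97.4, without it from 32.9 to 89.6.

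The comparison of genotypes asked whether the mutated Atoh7 enhancer went with a change at these promoters. Estimated widths were larger in SE/SE libraries for nearly all genes, the ribosomal protein genes included. In this bulk tissue, a different number of cells of a type and a different accessibility per cell cannot be told apart. The members' median width was 598 ± 34.5 bp in wild type and 716 ± 44.6 bp in SE/SE (SD, n = 3 each), against 649 ± 34.7 and 754 ± 30.2 bp over all genes. Every SE/SE library was above every wild-type library in width for 36 of the 70 members, or 51.4%, against 59.3% of the 11819 genes with a gene-end peak in 6 of 6 libraries. The opposite held for 0 members and 0.0338% of genes, and the other 34 members overlapped. With 3 animals against 3, an exact test of 1 gene cannot give a p under 0.1.

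The fit across all 11819 genes (limma on log2 width, SE/SE minus wild type) called 7 of the 70 members wider in SE/SE at an adjusted p below 0.05, which is 10% of them against 9.7% of all genes. It called 0 members narrower, against 0.00846% of genes, and 18 members (25.7%) had an unadjusted p under 0.05, against 33.1% of all genes. The share of members called was thus near that of all genes. The count was 3 members without SE/SE library 2, against 5.83% of all genes, and 4 without SE/SE library 3, against 5.71%. The median log2 difference was 0.13 over the members and 0.21 over all genes tested, and it was above 0 for 69 of 70 members, or 98.6%, and for 98.7% of all genes. After each library's widths were centred on that library's median over all genes tested, the median difference of all genes moved from 0.21 to -0.05. That of the members moved to -0.12, and 17 of 70 members stayed above 0. The centred fit called 2 members wider, against 3.08% of all genes, and 0 narrower, against 0.0169%.

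Those 2 members were Rpl32 and Rpl3. The peak of Rpl32, a large-subunit gene, was 396, 403 and 384 bp wide in wild type and 665, 859 and 670 bp in SE/SE. The groups did not overlap, and the widths differed 1.84-fold (log2 difference 0.88, SE 0.11, limma adjusted p = 0.00995). After centring, the difference was 0.63 (limma adjusted p = 0.0313). Near the ends of Rpl32 there were 2 peaks in each wild-type library and 1 in each SE/SE library. With the widths of all peaks within 1 kb summed, the log2 difference was 0.52 (limma adjusted p = 0.0483). Rpl3, whose product lies close to the catalytic centre of the large subunit, had peaks of 326, 344 and 323 bp in wild type and 467, 570 and 517 bp in SE/SE. Its widths differed 1.56-fold (log2 difference 0.64, SE 0.082, limma adjusted p = 0.0101; 0.39 and adjusted p = 0.0394 after centring). Without SE/SE library 3, the adjusted p of Rpl3 was 0.0520.

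Rps9, a small-subunit gene with one of the pyrimidine runs shown above, had the smallest adjusted p. Its peak was 556, 551 and 506 bp wide in wild type and 732, 738 and 752 bp in SE/SE. Every SE/SE value lay above every wild-type value (log2 difference 0.46, SE 0.048, limma adjusted p = 0.00498), and the peak reached farther upstream: it began at -212, -216 and -207 bp from the listed start in wild type and at -393, -384 and -393 bp in SE/SE. After centring, the difference was 0.21 with an adjusted p of 0.109 (limma).

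Rpl24, of the large subunit, had peaks of 533, 532 and 496 bp in wild type and 639, 661 and 643 bp in SE/SE (log2 difference 0.32, SE 0.042, limma adjusted p = 0.0120; 0.06 and 0.528 after centring). Without SE/SE library 2 or 3 its adjusted p was 0.0559 or 0.0553.

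The calls of Rpl18 and Rpl10a were small and turned to the opposite sign once widths were centred. Rpl10a, of the large subunit, had peaks of 745, 753 and 744 bp in wild type and 819, 872 and 869 bp in SE/SE (log2 difference 0.19, SE 0.038, limma adjusted p = 0.0409; -0.06 after centring). Rpl18 had 529, 539 and 514 bp in wild type and 595, 590 and 596 bp in SE/SE (log2 difference 0.17, SE 0.032, limma adjusted p = 0.0360; -0.08 after centring). The Rpl18 peak lies at the edge of the annotated span, and the listed start is 2604 bp inside. At that start the peaks of Rpl18 were 615, 651 and 531 bp in wild type and 704, 673 and 708 bp in SE/SE, with an adjusted p of 0.151 (limma). Both calls were lost without either SE/SE library 2 or 3 and without wild-type library 1 or 3, with adjusted p from 0.0698 to 0.145, and that of Rpl18 also without SE/SE library 1 (0.0646).

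The place of the members in the ranking gave a different sign from the raw percentile. Within the libraries' own lists, the members' median percentile was 75.2 ± 1.63 in wild type and 79.3 ± 0.983 in SE/SE (SD, n = 3 each). Every SE/SE library was above every wild-type library for 44 of 70 members (62.9%), against 70.9% of all genes. The opposite held for 0 members and 0.262% of all genes. This rise depends on the length of the lists: it was 4.10 points with the full lists and -3.39 points (72.3 to 68.9) when the strongest 27873 peaks of each library were used. Ranked only among the gene-end peaks of the 11819 genes, the members' median place was 43.7, 43.5 and 47.5 in wild type and 41.0, 39.4 and 39.6 in SE/SE, lower in each SE/SE library than in each wild-type one.

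The same ranking, turned into normal scores and fitted with limma over all 11819 genes, gave a median difference of -0.13 over the members and -0.03 over all genes. The difference was below 0 for 56 of 70 members, or 80%, and for 58.6% of all genes. The fit called 1 member lower in SE/SE, against 0.423% of all genes, and 0 higher, against 1.23%, and 22 members (31.4%) had an unadjusted p under 0.05, against 25.4% of all genes. Rpl3 was the gene called lower (score difference -0.33, SE 0.053, limma adjusted p = 0.0407). Its place among the gene-end peaks was 27.3, 27.8 and 26.0 in wild type and 18.5, 15.4 and 18.1 in SE/SE, without overlap. Its percentile in the libraries' whole lists, 64.2, 68.4 and 59.0 against 65.7, 66.8 and 69.3, overlapped between genotypes. At Rpl3 the peak was thus wider in SE/SE and ranked lower among gene-end peaks. The rank call was lost when any 1 library other than wild-type 2 was left out (adjusted p from 0.0793 to 0.168). Without wild-type 2, 6 members (8.57%) were called lower, against 1.48% of all genes.

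Both subunits gave similar values. Of the 29 small-subunit genes, 27 had a gene-end peak in 6 of 6 libraries, 2 were called wider and the median differences were 0.15 in log2 width and -0.13 in rank score. Of the 48 large-subunit genes, 43 had one, 5 were called wider, and the medians were 0.12 and -0.10. Over all 11819 genes tested, 9.7% were called wider, and the medians were 0.21 and -0.03. The difference between subunits was not tested.

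Related genes were read for the same measures. The 10 ribosomal protein genes outside the rule (among them Rpsa, Fau, Rack1, Rpl22l1, Rpl7l1 and the X-linked Rpl10, Rpl36a, Rpl39 and Rps4x) had a gene-end peak in 6 of 6 libraries, and 1 was called wider, Rpl22l1 (log2 difference 0.47, limma adjusted p = 0.000888). Rps3a1, named after its values were seen because its symbol falls outside the rule, had one in 6 of 6 libraries as well (log2 difference 0.30, limma adjusted p = 0.0254). The 16 translation factors and other genes with TOP mRNAs had one in 6 of 6 libraries, with 0 called on width or rank and medians of 0.09 and -0.05. Eef1a1, the main elongation factor of this list, had a median percentile of 97.8. Of 33 genes of ribosome biogenesis, 31 had one in 6 of 6 libraries, 5 were called wider and 2, Nhp2 and Pes1, lower in rank. Of 78 mitochondrial ribosomal protein genes, 71 had one (91.0%), 4 were called wider and 1 lower in rank, with medians of 0.23 and -0.07. For comparison, 9.7% of all genes tested were called wider and 0.423% lower in rank. The share of genes with a peak in 6 of 6 libraries was thus at or above 90.9% in each of these lists as in the members.

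Beyond the gene ends, few accessible regions were nearest to a ribosomal protein gene. Peaks of the 6 libraries that shared 1 bp or more were merged into regions, and those whose midpoint lay more than 1 kb and at most 100 kb from the ends of the nearest gene were counted. There were 59 such regions at 29 members, 0.766 per gene against 1.18 over all protein-coding genes, and 48 members had 0. Their median distance was 7986 bp, against 14803 bp over all genes. A peak in 6 of 6 libraries was found in 21 of the 59, or 35.6%, against 40.9% of all such regions.

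Of the 6 regions inside a gene, 5 had a peak in 6 of 6 libraries. Of these, 4 lay at the listed starts of Rps2, Rps27l, Rpl22 and Rpl19, so they are start regions by the annotation used. The fifth lay inside Rpl17, which has no listed start. The sixth, inside Rpl24 at chr16:55969272-55969440, had a peak in the 3 SE/SE libraries only. Of the 53 regions outside genes, 16 had a peak in 6 of 6 libraries.

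Rpl14, a large-subunit gene, had 6 further regions, the most of any member, and 4 of them had a peak in 6 of 6 libraries. Its nearest, at chr9:120577087-120577614, lay 2697.5 bp from the gene. Rps24 and Rplp1 had 5 each, of which 2 and 1 had a peak in 6 of 6 libraries. Rpl29 and Rpl32l had 4 each, and Rpl19 and Rpl38 3 each. Rpl32l, which had no peak at its ends, had 2 regions with a peak in 6 of 6 libraries, at chr10:20204850-20205378 and chr10:20194961-20195397, at 3325 and 13260 bp. Nearest by distance does not say which gene a region serves.

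**Figure D4:**
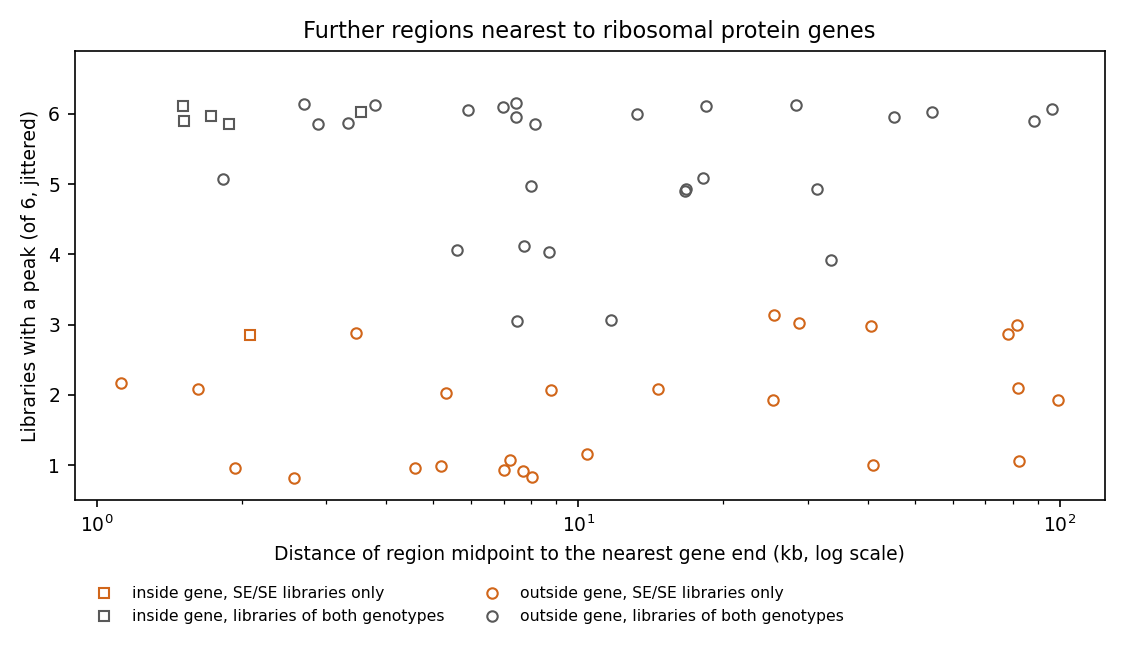
The 59 further regions nearest to a ribosomal protein gene, by distance of the midpoint from the nearer gene end (x axis, kb, log scale) and number of libraries with a peak (y axis, jittered around whole numbers); squares are inside the gene, circles outside, and orange marks regions with peaks in SE/SE libraries only. Regions in 6 libraries occur at all distances, and those in SE/SE libraries only have 1 to 3 libraries.

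The further regions were more often present in SE/SE libraries. There were 27, 32 and 22 in wild-type libraries and 40, 51 and 54 in SE/SE libraries, so the groups did not overlap, with a mean difference of 21.3. With the strongest 27873 peaks of each library the mean difference was 2.67. Of the 59 regions, 7 had a peak in 3 SE/SE and 0 wild-type libraries, or 11.9%, against 10.3% of all such regions, and 0 had the reverse, against 11 regions over all genes. The 7 were nearest to Rplp1 (2 regions), Rpl12, Rps15a, Rps29, Rps24 and Rpl24.

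In the joint lists that the authors named for the genotypes, with 104991 peaks for wild type and 120772 for SE/SE, 70 members had a gene-end peak in both. Those without one were the 6 members above and Rpl22. The members' median percentile in the joint lists was 91.9 for wild type and 92.1 for SE/SE, against 91.9 and 92.7 over all genes, and their median width 1210.5 and 1208.5 bp, against 1197 and 1231 bp. Each joint list is 1 list, with no replicate error.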

How the data were processed

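Peak lists of 3 wild-type and 3 SE/SE retina ATAC-seq libraries and 1 joint list per genotype were used. Per the submitters' processing notes, cutadapt, BWA, Genrich 0.5, bedtools 2.27.0, limma and build GRCm38 (mm10) were used, with no role or order. Read filters, duplicates, Tn5 shift, multiply mapped reads and the making of the joint lists are not given in the sources used here. For every peak the authors deposited coordinates, a score, −log10 p and a signal value. Between-library scaling is not stated, so signal was ranked within lists only. Read depth is unknown.

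Members were matched by symbol to RefSeq GRCm38.p6 spans. The members and lists were chosen with earlier results of these data known. Width (log2) and rank (normal score) of the gene-end peak were fitted with limma 3.58.1 (R 4.3.3) over all genes with one in 6 of 6 libraries, with Benjamini-Hochberg adjustment and a threshold of 0.05. Alternatives covered distance, listed starts, list length, centring, summed widths, −log10 p ranks, a replicate block and each library left out. Genes named by rule were members lacking a gene-end peak in a library, the 5 highest, lowest, widest and narrowest, those called, up to 8 with most further regions, and 10 chosen for their role. Others were named after their values or sequences were seen. Some genes taken by the rule are not reported here. Other steps used Python 3.11.15, numpy 2.4.6 and pandas 2.3.3. Of all steps, the limma fit of width was tested on simulated data.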

Additional observations from a re-analysis of the deposited data

How the results depend on the processing

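The number of members with a gene-end peak differed between genotypes (SE/SE minus wild type) by 0.333 on average, by -1 with peaks within 500 bp, and by 0 to 0.5 with 1 library left out. The difference in median percentile, 4.10, was -3.39 with lists of equal length and -4.90 among gene-end peaks, and 3.498 to 5.03 with 1 library left out. The difference in further regions, 21.3, was 2.67 with lists of equal length and 18.5 to 25.5 with 1 library left out. The difference in median width, 118.5 bp, stayed above 0 in every alternative run, and was 101.1 to 144 bp with 1 library left out. Centring was not among the alternatives run for this median. In the centred fit the members' median log2 width difference was -0.12, and 17 of 70 members were above 0. Members called wider, 7, were 2 with the replicate block, 3 at listed starts (fewer genes tested), 2 after centring and 3 to 10 with 1 library left out, of which 3 without SE/SE 2 and 4 without SE/SE 3. The 1 member called lower in rank was 0 with the replicate block, 0 with peaks in 2 or more libraries of each genotype, 0 at listed starts and 0 by −log10 p, and 0 to 6 with 1 library left out. Where not given, the cause was not tested. Same-numbered libraries did not deviate together (r over genes of 0.0186, 0.0785 and -0.0558 in width and 0.0616, 0.126 and 0.0102 in rank, and not every library correlated best with its own number), and no label ties a number to a litter or batch, so the block is no pairing by design. Over all genes, calls on width went from 1147 to 455 with the replicate block, 366 after centring, 2923 without wild-type 2, 690 without SE/SE 2 and 675 without SE/SE 3. Calls on rank went from 195 to 26 with the block, 27 by −log10 p and 588 without wild-type 2, and to between 25 and 113 without any other library. For single genes on width, Rpl18 and Rpl10a turned to -0.0836 and -0.0640 after centring, and passed in 7 and 9 of 15 alternatives. Among the others reported, Rpl32 passed in 14 of 14 alternatives, Rpl3 in 13 of 14, Rps9 in 13 of 15 and Rpl24 in 11 of 15. The rank call of Rpl3 passed in 5 of 13.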
